A study of Mus musculus with 18 samples.

Results

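The genes described here make, move and use high-energy phosphate in the heart: the creatine kinases Ckm, Ckmt2 and Ckb, the creatine transporter Slc6a8, the mitochondrial carriers Slc25a3, Slc25a4 and Slc25a5, and the adenylate kinase Ak1. They were chosen by name and not by a measured value, though earlier results of these data were known when they were chosen. They are 8 of the 49315 genes in the count tables. All 8 were among the 15778 genes with enough counts to be tested. RNA was sequenced from the mid wall of the left ventricle of male mice on the 129SVE background, wild type (WT) or with a knockout (KO) of the muscle LIM protein MLP. MLP is the product of Csrp3, and the series is described by its submitters as a model of dilated cardiomyopathy that progresses with age. The 6 groups were WT and MLP KO at 3, 6 and 10 weeks of age, with 3 libraries in each. The labels give no allele for the knockout, no treatment, and no statement of whether the libraries of a group came from separate animals, so p-values measure the spread between these libraries, which may be technical in part.

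Creatine kinases pass the phosphate of ATP to creatine and back. In cardiac muscle the mitochondrial enzyme charges creatine beside the inner membrane, and the cytosolic enzymes use the phosphocreatine to restore ATP near myofibrils and ion pumps. Muscle does not make enough creatine of its own and takes it up through Slc6a8, while the adenine nucleotide translocases exchange ATP for ADP across the inner membrane, the phosphate carrier brings in the phosphate for ATP synthase, and adenylate kinase interconverts ATP, ADP and AMP.

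The upstream sequences of the 3 creatine kinase genes are shown because Ckm and Ckmt2, the muscle forms, and Ckb, the form named for brain, encode enzymes of the same reaction and had different patterns across the groups. Each is the 250 bases before the transcription start in RefSeq on GRCm38.p6, 5' to 3' on the gene's own strand. Capitals mark the E-box CAGCTG, and in Ckb a MEF2 motif that contains TATAAA. Only exact matches were marked, so variants of these motifs, such as ctatataa in Ckm, stay in lower case. The Ckm window is chr7:19410844-19411093 on the plus strand, the Ckmt2 window chr13:91876886-91877135 on the minus strand and the Ckb window chr12:111672339-111672588 on the minus strand. The Ckm start in RefSeq lies within the wider span that the count files give the gene.
Ckm: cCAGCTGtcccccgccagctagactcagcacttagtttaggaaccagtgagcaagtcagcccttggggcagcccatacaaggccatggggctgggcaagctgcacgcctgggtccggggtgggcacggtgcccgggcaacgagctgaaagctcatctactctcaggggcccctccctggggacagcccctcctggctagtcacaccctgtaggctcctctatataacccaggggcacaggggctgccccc
Ckmt2: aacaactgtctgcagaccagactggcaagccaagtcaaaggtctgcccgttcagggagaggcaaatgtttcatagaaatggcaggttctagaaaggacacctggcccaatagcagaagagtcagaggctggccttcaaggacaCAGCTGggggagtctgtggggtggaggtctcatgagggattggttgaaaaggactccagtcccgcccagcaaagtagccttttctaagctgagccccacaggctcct
Ckb: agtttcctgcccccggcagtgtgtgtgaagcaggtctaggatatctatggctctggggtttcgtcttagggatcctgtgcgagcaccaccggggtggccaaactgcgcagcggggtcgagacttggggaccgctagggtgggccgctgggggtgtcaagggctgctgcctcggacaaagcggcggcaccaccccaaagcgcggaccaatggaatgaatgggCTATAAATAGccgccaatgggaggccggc

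CAGCTG, which reads the same on both strands, began 249 bases before the start in Ckm and 107 bases before it in Ckmt2. It was absent from the Ckb window, whose MEF2 motif began 29 bases before the start and overlapped a TATAAA 28 bases before it. Of 32851 such windows in the table, 13.0% held CAGCTG, 12.4% held TATAAA on either strand and 0.508% held a MEF2 motif on either strand. Of the 8 genes, 7 had at least 1 window, and CAGCTG was found in Ckm, Ckmt2 and Ak1. These 7 genes had 10 windows, 4 of them of Ak1, so a count of genes cannot be set against the share of windows. These matches are descriptions of letters, not of bound sites.

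Libraries held 14980968 to 23001047 counts. The 7 cardiomyocyte marker genes summed to between 54527 and 90796 CPM (counts scaled to a common library size), while 9 skeletal muscle markers summed to at most 6.14 CPM, with Myh4 at or near 0. Csrp3 itself was not lower in the KO libraries, at 1022 ± 81.6 CPM in WT and 1783 ± 819 CPM in KO at 3 weeks (SD, n = 3), and it was higher at 10 weeks (log2 fold change 1.29, SE 0.30, adjusted p = 0.0041). The genotype therefore rests on the labels, and which part of Csrp3 was removed was not given in the sources used here. Mitochondrially encoded genes took 11.0% to 16.8% of counts in WT and 7.50% to 10.9% in KO, with no overlap. The atrial light chain gene Myl4 stood at 118 CPM in KO replicate 3 at 3 weeks, 436 CPM in KO replicate 3 at 6 weeks and 1145 CPM in KO replicate 1 at 10 weeks, against at most 23.2 CPM in the other 15 libraries. The adipocyte markers summed to 97.5 CPM in the same KO library at 6 weeks and 102 CPM in the same one at 10 weeks, against at most 4.42 CPM elsewhere. The results that change without these 3 libraries are given with and without them.

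Per kilobase of exon, the carrier Slc25a4 was the most abundant of the 8 genes in every group, at 2698 CPM per kb on average in WT at 6 weeks. Ckmt2 and Ckm followed, at 1338 and 1285 CPM per kb in the same group, and their ranges overlapped in WT at 3 and 6 weeks. Ak1 (316 CPM per kb) and Slc25a3 (252 CPM per kb) came next, overlapping in 4 of the 6 groups but not in WT or KO at 6 weeks, and Slc25a5 (150.0 CPM per kb) lay below them in every group. Slc6a8 (49.3 CPM per kb) and Ckb (44.5 CPM per kb) were the lowest pair and overlapped in WT at 3 and 6 weeks and in KO at 3 weeks. In KO at 6 weeks none of the neighbours in this order overlapped, and Ckm stood at 556 CPM per kb beside 866 for Ckmt2. The exon length of each gene is the union of all its transcripts. That of Slc25a3, 5550 bases, is long for its coding part, so its per-kilobase level is a low estimate. The lengths of Slc6a8 (5210 bases) and Ckm (2913 bases, against 1486 for Ckmt2) may lower their levels too. Without division by length, Ckm was above Ckmt2 in WT at 6 weeks, at 3743 against 1989 CPM on average.

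**Figure D1:**
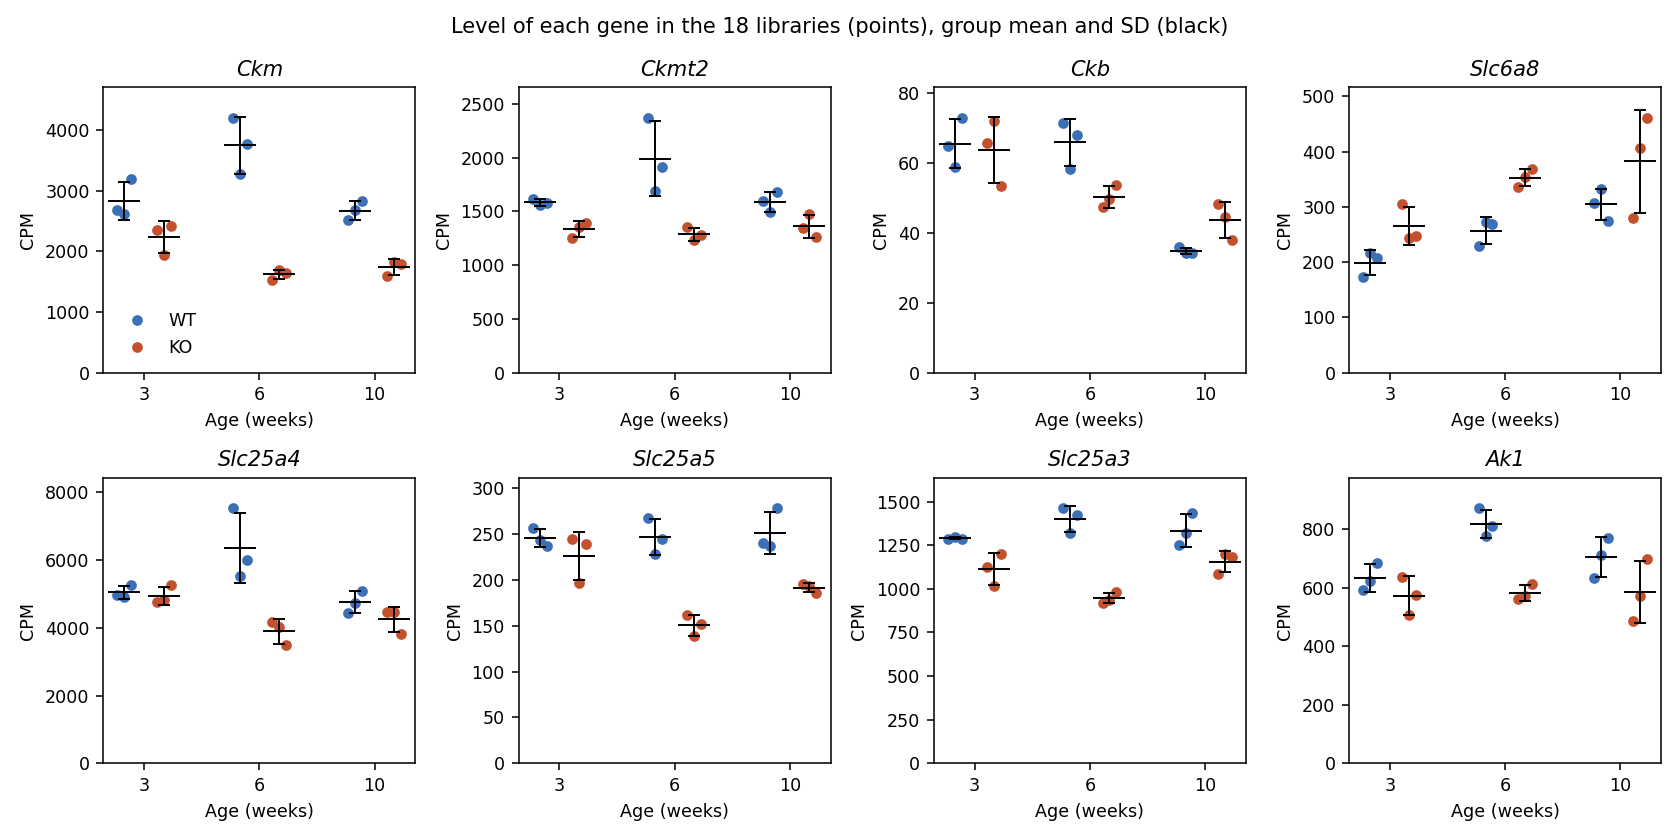
CPM of each gene (y axis, from 0) in each of the 18 libraries (points) by age in weeks (x axis), with WT in blue, KO in orange and the group mean and SD in black. The 3 KO libraries lie apart from the 3 WT libraries at 6 weeks in all 8 panels, below them in 7 and above them for Slc6a8.

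The study compared MLP KO ventricle with age-matched WT ventricle. At 6 weeks all 8 genes changed: 7 were lower in KO and Slc6a8 was higher, and in none did a KO library overlap a WT library. Of all genes tested, 23.8% were called at that age, 12.8% lower and 11% higher, and 44.2% had groups that did not overlap. At 3 weeks none of the 8 passed the edgeR test, where 15.3% of all genes did and 30.5% had groups that did not overlap. There, 4 of the 8 (Ckm, Ckmt2, Slc25a3 and Slc6a8) had an unadjusted p under 0.05 and groups that did not overlap. DESeq2 called 2 of the 8 at 3 weeks and limma voom 1. Each of these also called more of all genes than the 2419 called by edgeR. At 10 weeks 2 of the 8, Ckm and Slc25a5, were called, both lower, against 29.3% of all genes called and 14.7% called lower; 5 of the 8 had groups that did not overlap, against 40.5% of all genes. With library totals in place of TMM scaling 6 of the 8, all but Ckb and Slc6a8, were called lower at 10 weeks. Of all 15778 genes, 3424 were then called lower and 1653 higher, against 2316 and 2309 with TMM. Thus 32.6% of all calls were higher rather than 49.9%, since that scaling moved the median of all genes by -0.14. At 6 weeks it moved the share of higher calls from 46.1% to 58.5%. The median log2 fold change of the 8 was -0.13 at 3 weeks, -0.60 at 6 weeks and -0.21 at 10 weeks, beside 0.00, 0.00 and -0.03 over all genes tested. The counts of the 8 genes together were 11516.5 to 12503.5 CPM in the WT libraries and 10145 to 11381 CPM in the KO libraries at 3 weeks. They were 13136 to 16985 CPM against 8573 to 9083 CPM at 6 weeks, and 11002 to 12391 CPM against 9442 to 10194 CPM at 10 weeks.

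Markers of other cells moved at the same ages. At 6 weeks 4 of 6 fibroblast markers were higher in KO and 1 was lower, and their sum was 572 to 617 CPM in WT and 908 to 1109 CPM in KO. Of the 7 cardiomyocyte markers, 1 was higher and 2 were lower at 6 weeks, and the sums, 71887 to 83444 CPM in WT and 71107 to 81178 CPM in KO, overlapped. Of the 5 macrophage markers 1 was lower and none was higher at 6 weeks, with sums of 179 to 236 CPM in WT and 136 to 170 CPM in KO. At 10 weeks 3 of 5 macrophage markers and 2 of 5 endothelial markers were lower and none of either list was higher, with sums of 151 to 190.0 CPM in WT and 108 to 140 CPM in KO for macrophages, and 717 to 868 CPM in WT and 564 to 608 CPM in KO for endothelium. At 3 weeks 4 of the 7 cardiomyocyte markers were higher and none was lower, with sums of 54527 to 67132 CPM in WT and 78400 to 82012 CPM in KO, and at 10 weeks 2 were higher and 1 was lower, with sums of 70467 to 77254 CPM in WT and 83374 to 90796 CPM in KO. The fibroblast sums also stood apart at 3 weeks, at 730.1 to 812 CPM in WT and 866 to 996 CPM in KO (1 marker higher, 2 lower), and at 10 weeks, at 559 to 612 CPM in WT and 697 to 792 CPM in KO (1 higher, 1 lower). At 3 weeks 1 macrophage marker was lower, with sums of 206 to 248 CPM in WT and 164 to 174 CPM in KO, and none of the 5 red cell genes was called, with sums of 2307 to 3914 CPM in WT and 938 to 2098 CPM in KO. No marker of these lists was at 0 throughout a group. Of the 5 atrial markers 4 were tested, and Nppa, a natriuretic peptide gene that stressed ventricle also expresses, was the 1 called, higher in KO at each age (log2 fold change 3.47, 4.48 and 5.83 at 3, 6 and 10 weeks). Bmp10 was at or near 0 in every library. The part of these cells in the results was not tested, and in whole tissue fewer cells of a type and less RNA per cell cannot be told apart. With the mitochondrially encoded genes left out of the counts, all 8 genes were still called at 6 weeks.

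**Figure D2:**
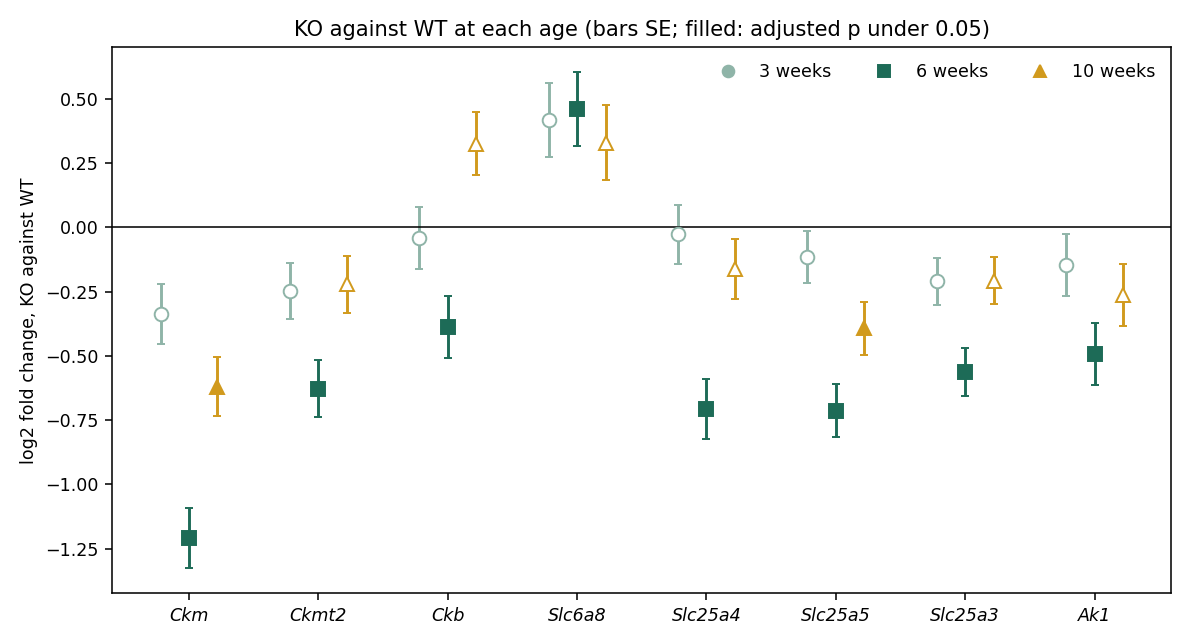
log2 fold change of KO against WT (y axis) for each gene (x axis) at 3, 6 and 10 weeks, with bars for the SE and filled symbols for an adjusted p under 0.05. All 8 symbols at 6 weeks are filled, from -1.21 for Ckm to 0.46 for Slc6a8, and at 10 weeks only those of Ckm and Slc25a5 are.

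Ckm (ENSMUSG00000030399, chr7:19404776-19422841 on GRCm38, plus strand), the cytosolic muscle creatine kinase, had the largest log2 fold change of the 8 at 6 and 10 weeks. At 6 weeks the WT libraries held 4197, 3268 and 3765 CPM and the KO libraries 1531, 1684 and 1641 CPM. The highest KO library lay far below the lowest WT library, and the KO level was 43.2% of WT (log2 fold change -1.21, SE 0.12, adjusted p = 1.6e-07). At 3 weeks WT libraries held 2681, 2609 and 3193 CPM and KO libraries 2354, 1941 and 2417 CPM, a smaller gap with no overlap that did not pass the test (-0.34, SE 0.12, adjusted p = 0.053). That value lies beside the threshold: it passed in 7 of 9 other settings and in none of the 6 fits that left out a library. At 10 weeks the libraries held 2507, 2680 and 2824 CPM in WT and 1590, 1831 and 1794 CPM in KO. Ckm was again lower in every KO library, at 65.1% of WT (-0.62, SE 0.12, adjusted p = 0.00035), and was called in all 6 fits without a library at both later ages. The gene A930016O22Rik overlaps Ckm on the other strand and held 1676 counts in all libraries together, against 846349 for Ckm.

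Ckmt2 (ENSMUSG00000021622, chr13:91853387-91876885, minus strand) is the sarcomeric mitochondrial creatine kinase, which sits between the mitochondrial membranes beside the adenine nucleotide translocases. Its WT libraries at 6 weeks held 2369, 1685 and 1912 CPM, and its KO libraries 1351, 1230 and 1279 CPM. The KO group was tight and below the lowest WT library, and the difference was called (log2 fold change -0.63, SE 0.11, adjusted p = 0.00022). At 3 weeks the levels were 1617, 1558 and 1576 CPM in WT and 1252, 1357 and 1393 CPM in KO (-0.25, SE 0.11, adjusted p = 0.14). At 10 weeks they were 1593, 1494 and 1679 CPM in WT and 1349, 1473 and 1264 CPM in KO (-0.22, SE 0.11, adjusted p = 0.14). At both of those ages every KO library was below every WT library and neither difference passed the test.

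Ckb (ENSMUSG00000001270, chr12:111669355-111672338, minus strand), the cytosolic brain-type creatine kinase that fetal heart also uses, was the least counted of the 8, with at least 587 counts in every library. At 6 weeks it stood at 71.3, 58.2 and 67.9 CPM in WT and 47.4, 49.7 and 53.6 CPM in KO. It was lower in KO (log2 fold change -0.39, SE 0.12, adjusted p = 0.023), but the call held in only 2 of the 6 fits without a library, and the adjusted p was 0.12 without WT replicate 1 at 6 weeks. With library totals in place of TMM scaling it was 0.088. At 10 weeks the direction of the difference was the opposite: 35.8, 34.3 and 34.1 CPM in WT and 48.1, 44.6 and 37.9 CPM in KO, with every KO library above every WT library (0.33, SE 0.12, adjusted p = 0.051). That value too lies beside the threshold: it passed with RLE size factors (0.36, adjusted p = 0.032), with the mitochondrially encoded genes left out (0.34, adjusted p = 0.041) and with DESeq2 (0.36, adjusted p = 0.027), and without KO replicate 3 at 10 weeks (0.44, adjusted p = 0.013). It did not pass in the other 5 fits without a library or without the 3 Myl4-rich libraries (0.27, adjusted p = 0.11). Of 9 other settings it passed in 3, and with library totals in place of TMM scaling the value was 0.18 (adjusted p = 0.29). At 3 weeks the groups overlapped, at 64.8, 58.7 and 72.8 CPM in WT and 65.6, 71.9 and 53.3 CPM in KO (-0.04, SE 0.12, adjusted p = 0.86). Between 6 and 10 weeks Ckb fell in WT from 65.8 ± 6.80 to 34.7 ± 0.93 CPM (SD, n = 3), while the KO means were 50.2 ± 3.14 and 43.5 ± 5.17 CPM, a difference that was not called (adjusted p = 0.29).

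Slc6a8 (ENSMUSG00000019558, chrX:73673150-73682502, plus strand), the sodium-coupled transporter through which muscle takes up creatine, was the only gene of the 8 with more RNA in KO at 6 weeks. Its libraries then held 229, 273 and 269 CPM in WT and 337, 353 and 368 CPM in KO. The highest WT library was below the lowest KO library (log2 fold change 0.46, SE 0.14, adjusted p = 0.024), and the call held in 3 of 6 fits without a library, with an adjusted p of 0.12 without WT replicate 1. At 3 weeks the levels were 173, 216 and 208 CPM in WT and 305, 244 and 248 CPM in KO, again with no overlap (0.42, SE 0.14, adjusted p = 0.055). At 10 weeks they were 307, 332 and 274 CPM in WT and 279.5, 407 and 461 CPM in KO. KO replicate 1, the library richest in Myl4, lay within the WT range, and the difference was not called (0.33, SE 0.14, adjusted p = 0.092). Without the 3 Myl4-rich libraries the value at 10 weeks was 0.53 (adjusted p = 0.0048), and without KO replicate 1 at 10 weeks alone it was 0.55 (adjusted p = 0.0024). At 3 weeks, without those 3 libraries, Slc6a8 (0.46, adjusted p = 0.024) and Ckm (-0.40, adjusted p = 0.049) both passed the test.

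Slc25a4 (ENSMUSG00000031633, chr8:46206797-46211284, minus strand) and Slc25a5 (ENSMUSG00000016319, chrX:36795651-36798807, plus strand) encode adenine nucleotide translocases 1 and 2. The former is the main form of heart and skeletal muscle and the latter that of many dividing tissues. Slc25a4 libraries at 6 weeks held 7519, 5528 and 5998 CPM in WT and 4171, 4010 and 3484 CPM in KO. WT replicate 1 stood well above the other two, yet all 3 WT libraries exceeded all 3 KO libraries (log2 fold change -0.71, SE 0.12, adjusted p = 0.00011). The value without WT replicate 1 was -0.56, and all 6 fits without a library called it. At 3 weeks the Slc25a4 libraries overlapped, at 4960, 4913 and 5246 CPM in WT and 4762, 4812 and 5255 CPM in KO (-0.03, SE 0.12, adjusted p = 0.91), and at 10 weeks the groups overlapped at 4436, 4728 and 5098 CPM in WT and 4451, 4475 and 3817 CPM in KO (-0.16, SE 0.12, adjusted p = 0.32).

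Slc25a5 had a gap of similar size at 6 weeks at a much lower level, with 267, 229 and 244 CPM in WT and 162, 138 and 151 CPM in KO. KO was 61.0% of WT (log2 fold change -0.71, SE 0.10, adjusted p = 2.5e-05), and all 6 fits without a library called it. At 10 weeks it remained lower, at 240.4, 237 and 278 CPM in WT and 196, 193 and 186 CPM in KO (-0.39, SE 0.10, adjusted p = 0.0058). That call held in 5 of 6 fits, the exception being the fit without WT replicate 3 at 10 weeks (adjusted p = 0.060). At 3 weeks the levels overlapped, at 256, 243 and 237 CPM in WT and 245, 196 and 239 CPM in KO (-0.12, SE 0.10, adjusted p = 0.49). The pseudogenes Slc25a5-ps, Ckb-ps1 and Ckb-ps2 held 1, 0 and 1 counts in all libraries together. How multimapping reads were treated is not given, so these counts do not show how many reads are shared with processed copies. No other copies were examined.

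Slc25a3 (ENSMUSG00000061904, chr10:91116574-91124059, minus strand) is the mitochondrial phosphate carrier. At 6 weeks its libraries held 1461, 1318 and 1421 CPM in WT and 922, 938 and 982 CPM in KO. Every KO library was far below every WT library, and the difference was called in all 6 fits without a library (log2 fold change -0.56, SE 0.09, adjusted p = 0.00011). KO libraries were below all WT libraries also at 3 weeks, with 1288, 1296 and 1285 CPM in WT and 1127, 1017 and 1200 CPM in KO (-0.21, SE 0.09, adjusted p = 0.13), and at 10 weeks, with 1250, 1319 and 1434 CPM in WT and 1088, 1198 and 1182 CPM in KO (-0.21, SE 0.09, adjusted p = 0.098). Neither of those passed the test.

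Ak1 (ENSMUSG00000026817, chr2:32621758-32635058, plus strand), the cytosolic adenylate kinase that makes ATP and AMP from ADP, stood at 872, 777 and 811 CPM in WT and 563, 572 and 614 CPM in KO at 6 weeks. It was lower in every KO library (log2 fold change -0.49, SE 0.12, adjusted p = 0.0046) and in all 6 fits without a library. The groups overlapped at 3 weeks, with 594, 622 and 686 CPM in WT and 638, 506 and 576 CPM in KO (-0.15, SE 0.12, adjusted p = 0.46). They overlapped again at 10 weeks, with 632, 713 and 769 CPM in WT and 488, 572 and 699 CPM in KO (-0.26, SE 0.12, adjusted p = 0.11). KO replicate 3 was the highest of its group there, and without it the value was -0.39 (adjusted p = 0.021). KO replicate 1 was the lowest, and without it the value was -0.11 (adjusted p = 0.54), while without the 3 Myl4-rich libraries it was -0.13 (adjusted p = 0.52).

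Whether the genotype difference itself changed with age was tested as an interaction in the same fit. Between 3 and 6 weeks it became lower for 3 of the 8 genes, against 1.59% of all genes called and 1.1% called lower: Ckm (log2 change of the difference -0.87, SE 0.16, adjusted p = 0.0089), Slc25a4 (-0.68, SE 0.16, adjusted p = 0.038) and Slc25a5 (-0.60, SE 0.14, adjusted p = 0.038). The Ckm call held in all 12 fits without a library, that of Slc25a4 in 4 of 12 and that of Slc25a5 in 2 of 12. Without the 3 Myl4-rich libraries the adjusted p was 0.044 for Ckm, 0.17 for Slc25a4 and 0.14 for Slc25a5. Between 6 and 10 weeks it became higher for 2 of the 8, Ckb (0.71, SE 0.17, adjusted p = 0.018) and Ckm (0.59, SE 0.16, adjusted p = 0.038), against 5.75% of all genes called and 3.12% called higher. Ckb was called in all 12 fits without a library, at adjusted p values up to 0.0498, and Ckm in 3 of 12. These 2 sets of differences share the libraries at 6 weeks. Between 3 and 10 weeks none of the 8 was called by edgeR, DESeq2 or limma voom, against 5.76% of all genes called by edgeR, and 1 of the 8, Ckb, had an unadjusted p under 0.05 in edgeR.

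Within WT, from 3 to 6 weeks, 1 of the 8 genes was called, against 5.18% of all genes called and 2.94% called higher: Ckm rose (log2 change 0.40, SE 0.12, adjusted p = 0.045), a call that held in 2 of 6 fits without a library and not without WT replicate 1 at 6 weeks (adjusted p = 0.21) or without the 3 Myl4-rich libraries (0.40, adjusted p = 0.052), all of them KO. All 8 values were above 0, but those of Ckb (0.0085, SE 0.12, adjusted p = 0.98) and Slc25a5 (0.0080, SE 0.10, adjusted p = 0.98) were far smaller than their SE. From 6 to 10 weeks 3 of the 8 fell in WT, against 8.77% of all genes called and 5.12% called lower: Ckb by 0.92 on the log2 scale (SE 0.12, adjusted p = 4.7e-05), Ckm by 0.49 (SE 0.12, adjusted p = 0.012) and Slc25a4 by 0.42 (SE 0.12, adjusted p = 0.029). Ckb was called in all 6 fits without a library, Ckm in 4 and Slc25a4 in 1. Over the whole span from 3 to 10 weeks 2 of the 8 changed in WT, against 16.5% of all genes called, 8.08% lower and 8.45% higher: Ckb fell by 0.91 (SE 0.12, adjusted p = 2.8e-05) and Slc6a8 rose by 0.61 (SE 0.14, adjusted p = 0.0056), both in all 6 fits.

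Within KO, from 3 to 6 weeks, 2 of the 8 genes fell, against 11.6% of all genes called and 6.25% called lower: Slc25a5 by 0.59 on the log2 scale (SE 0.10, adjusted p = 0.00072) in all 6 fits without a library, and Ckm by 0.47 (SE 0.12, adjusted p = 0.011) in 4 of 6. From 6 to 10 weeks 2 of the 8 rose, against 12.7% of all genes called and 6.52% called higher: Slc25a5 by 0.35 (SE 0.10, adjusted p = 0.029) and Slc25a3 by 0.29 (SE 0.09, adjusted p = 0.044). These held in 3 of 6 and 1 of 6 fits, and neither was called without the 3 Myl4-rich libraries (adjusted p = 0.10 and 0.052). From 3 to 10 weeks 3 of the 8 changed, against 20.1% of all genes called, 10.3% lower and 9.8% higher: Ckb fell by 0.55 (SE 0.12, adjusted p = 0.0028) in all 6 fits, Slc6a8 rose by 0.52 (SE 0.14, adjusted p = 0.012) in 3 of 6, and Ckm fell by 0.36 (SE 0.12, adjusted p = 0.030) in 1 of 6. Without the 3 Myl4-rich libraries the change of Ckm from 3 to 6 weeks in KO was -0.41 (adjusted p = 0.10) and from 3 to 10 weeks -0.21 (adjusted p = 0.35), while Slc6a8 from 3 to 10 weeks was 0.69 (adjusted p = 0.0026). Slc6a8 thus rose with age in both genotypes over that span, and Ckb fell in both.

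Because the isoforms differ in level, their balance was also set out as a log2 ratio per kilobase in each library. The ratio of Ckmt2 to Ckm was near even in WT, at 0.14 ± 0.16 at 3 weeks, 0.05 ± 0.08 at 6 weeks and 0.22 ± 0.09 at 10 weeks (SD, n = 3). In KO it was 0.23 ± 0.20, 0.64 ± 0.14 and 0.62 ± 0.14, above every WT library at 6 and 10 weeks and overlapping at 3 weeks. The level of this ratio, near even in WT, rests on the exon lengths used. The difference between genotypes does not depend on them. The ratio of Ckb to Ckm was -4.45 ± 0.05, -4.85 ± 0.05 and -5.28 ± 0.12 in WT and -4.16 ± 0.37, -4.03 ± 0.07 and -4.34 ± 0.26 in KO. Relative to Ckm, Ckb was 1.76-fold higher in KO than in WT at 6 weeks and 1.92-fold higher at 10 weeks, in each case with no overlap, and at 3 weeks the groups overlapped. At 6 weeks this came with a lower Ckb level in KO, and at 10 weeks with a higher one that missed the threshold.

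Between the translocases, the genotypes overlapped at 3 and 6 weeks: the ratio of Slc25a5 to Slc25a4 was -4.16 ± 0.12 in WT and -4.17 ± 0.17 in KO at 6 weeks, and differed without overlap only at 10 weeks, at -3.73 ± 0.07 in WT and -3.95 ± 0.09 in KO. The ratio of Slc25a3 to Slc25a4 was lower in KO without overlap at 3 weeks, at -3.39 ± 0.08 against -3.20 ± 0.06, and the groups overlapped at 6 and 10 weeks. These ratios are descriptions, with no test.

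**Figure D3:**
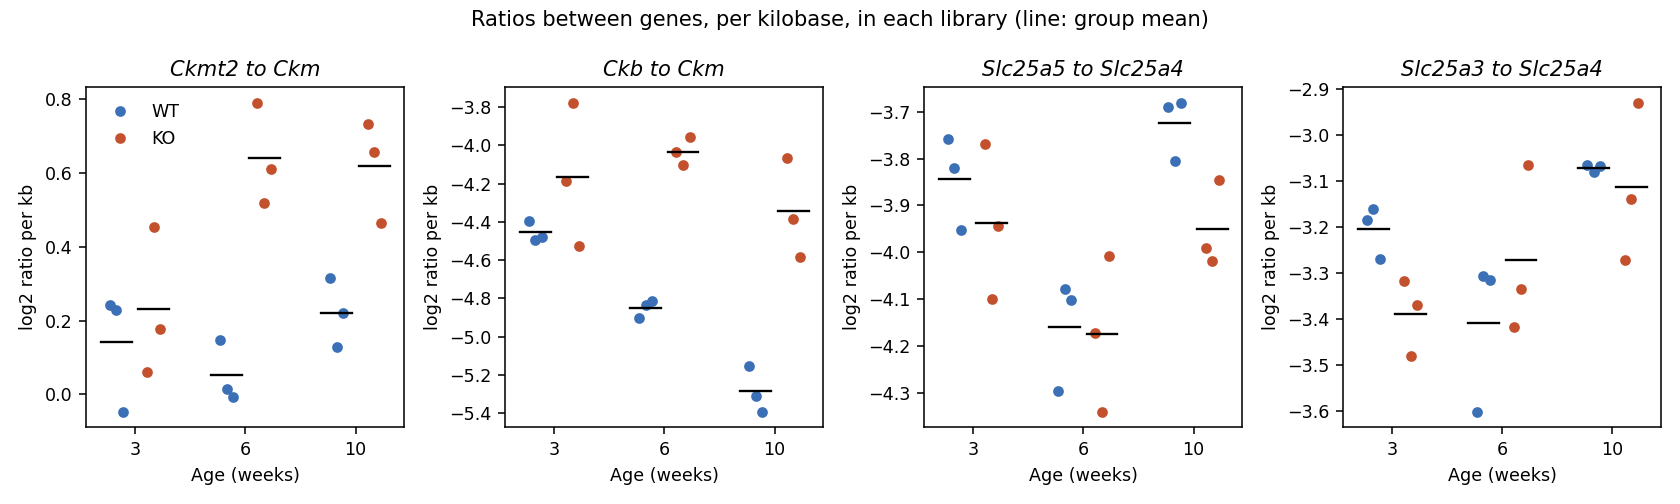
log2 ratio per kilobase between pairs of the genes (y axis) in each library (points) by age in weeks (x axis), with WT in blue, KO in orange and a line at the group mean. The ratios of Ckmt2 and of Ckb to Ckm lie higher in KO than in WT at 6 and 10 weeks, while those among the carriers mostly overlap.

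Across the 18 libraries the log2 CPM of Ckm moved with that of Slc25a3 (Pearson r 0.88), Slc25a4 (0.88), Ckmt2 (0.86), Slc25a5 (0.82) and Ak1 (0.80). With Ckb the value was 0.35. Slc6a8 had a negative r with each of the other 7, from -0.64 with Slc25a4 to -0.08 with Ak1. These values are over libraries that share groups, depth and scaling, and are given as a description.

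The search for similar patterns covered the 8608 tested genes that averaged 10 CPM or more. The genes whose pattern over the 18 libraries was most like that of Ckm were Atp5o (r 0.992) and Atp5g1 (0.986), which encode parts of ATP synthase, and Ndufs8 (0.988), of respiratory complex I. Atp5o was lower by 0.87 on the log2 scale in KO at 6 weeks (SE 0.10). It was picked for its likeness to Ckm in these same libraries, so this is no separate result. Those most like Ckmt2 were the complex I genes Ndufab1 (0.966), Ndufa6 (0.965) and Ndufb9 (0.965). For Slc25a3 they were Atp5a1 (0.977), of ATP synthase, Ndufa10 (0.966), of complex I, and Sod2 (0.962), the mitochondrial superoxide dismutase. Slc25a5 was most like Mrpl19 (0.933) and Mrps5 (0.932), of the mitochondrial ribosome, and Idh3a (0.929), of the citric acid cycle.

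The other members had different company. Slc25a4 was most like Tpm1 (0.935), the gene of a thin-filament tropomyosin, Itgb1bp2 (0.935), which encodes melusin, and Gngt2 (0.927). Ak1 was most like Aes (0.962), Slc25a11 (0.939), the oxoglutarate carrier, and Akr7a5 (0.936). Ckb was most like Galnt18 (0.914), Arpc1b (0.911), of the actin-nucleating Arp2/3 complex, and R3hcc1 (0.880), and Slc6a8 was most like Patj (0.964), of a cell polarity complex, 5031439G07Rik (0.953) and Prob1 (0.947). The nearest of so many genes have a high r by selection, and no p is given.

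**Figure D4:**
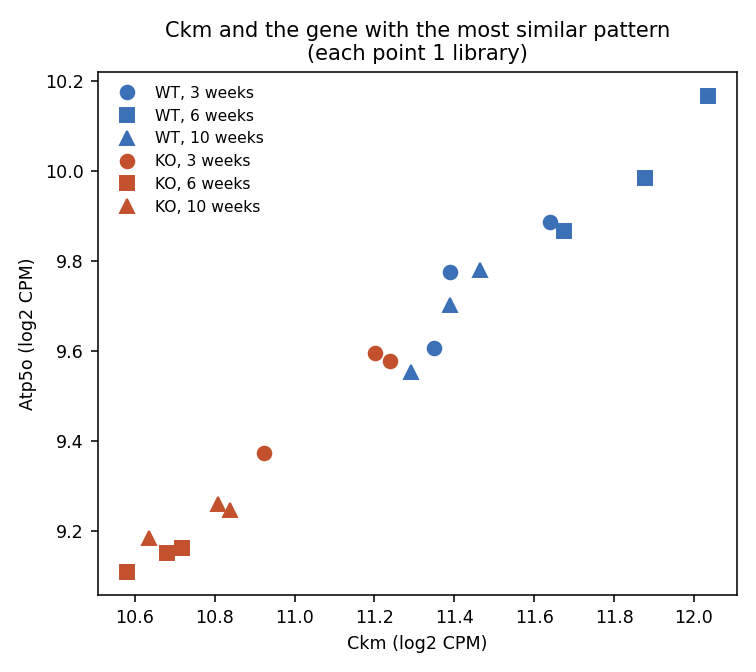
log2 CPM of Ckm (x axis) and of Atp5o, the gene with the most similar pattern (y axis), in each of the 18 libraries, with genotype by colour and age by symbol. KO libraries at 6 and 10 weeks lie lowest on both axes and WT libraries at 6 weeks reach highest (r 0.992).

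A list of 41 other genes of creatine, adenylate and nucleotide handling gives the surroundings of these 8, and 35 of them were tested; Ak5, Ak7, Ak8, Ak9, Ampd1 and Slc25a41 had too few counts, at no more than 0.52 CPM in any library. At 3 weeks 2 of the 35 changed, 5.71% of those tested beside 15.3% of all genes, 1 in each direction, with a median log2 fold change of -0.11. Gatm, the first enzyme of creatine synthesis, was lower in KO (-0.86, SE 0.18, adjusted p = 0.0021), and Slc25a23, a calcium-regulated carrier of ATP-Mg and phosphate, was higher (0.60, SE 0.11, adjusted p = 0.00080). At 6 weeks 12 of the 35 changed, 34.3% of those tested beside 23.8% of all genes, with 9 lower, 3 higher and a median of -0.25. At 10 weeks 11 changed, 31.4% beside 29.3%, with 5 lower, 6 higher and a median of 0.08. The median over all genes was 0.00 at 3 and 6 weeks and -0.03 at 10 weeks.

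At 6 weeks the largest called differences below WT in that list were those of Atpif1, the inhibitor of ATP synthase running in reverse (log2 fold change -0.78, SE 0.12, adjusted p = 5.8e-05), Nme2, a nucleoside diphosphate kinase (-0.75, SE 0.13, adjusted p = 0.00015), Ak4, an adenylate kinase of the mitochondrial matrix (-0.64, SE 0.13, adjusted p = 0.00077) and Gatm (-0.53, SE 0.18, adjusted p = 0.039). Atpif1 averaged 103, 164 ± 21.7 and 81.3 CPM in WT at 3, 6 and 10 weeks, and 90.2, 95.0 ± 11.5 and 90.6 CPM in KO. Nme2 averaged 202, 287 ± 62.7 and 177 CPM in WT, and 179, 170 ± 17.8 and 187 CPM in KO. For both genes the WT mean was highest at 6 weeks. The 3 called higher were Prkab2 (1.15, SE 0.20, adjusted p = 0.00047) and Prkaa1 (0.48, SE 0.14, adjusted p = 0.018), subunits of the AMP-activated protein kinase AMPK, and Slc25a23 (0.40, SE 0.11, adjusted p = 0.011). Another AMPK subunit gene, Prkab1, was lower (-0.39, SE 0.14, adjusted p = 0.047). At 6 weeks the synthesis gene Gatm was thus lower, at 8.11 CPM in WT and 5.61 CPM in KO on average, and the uptake gene Slc6a8 higher. Gamt, the other creatine synthesis gene of the list, was not called at any age. Its values lay above 0 (0.26, 0.34 and 0.36 at 3, 6 and 10 weeks). A link between synthesis and uptake was not tested.

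At 10 weeks, as at 6 weeks, the beta subunits of AMPK differed in opposite directions. Prkab2 was higher in KO, at 153 ± 53.2 against 48.6 ± 4.45 CPM (SD, n = 3; log2 fold change 1.65, SE 0.21, adjusted p = 1.1e-05). Prkab1 was lower, at 22.5 ± 5.86 against 38.8 ± 5.31 CPM (-0.78, SE 0.14, adjusted p = 0.00026). Nme1 (0.81, SE 0.16, adjusted p = 0.00065), Slc25a23 (0.70, SE 0.11, adjusted p = 6.9e-05) and Slc25a36, a pyrimidine nucleotide carrier (0.70, SE 0.25, adjusted p = 0.049), were also higher. The coenzyme A carrier Slc25a42 (-1.61, SE 0.24, adjusted p = 8.9e-05), Gatm (-0.57, SE 0.19, adjusted p = 0.026) and the AMP deaminase Ampd3 (-0.51, SE 0.14, adjusted p = 0.0090) were lower. Nme1 and Nme2 are close copies and neighbours, so reads may be split between them and their values are uncertain.

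**Figure D5:**
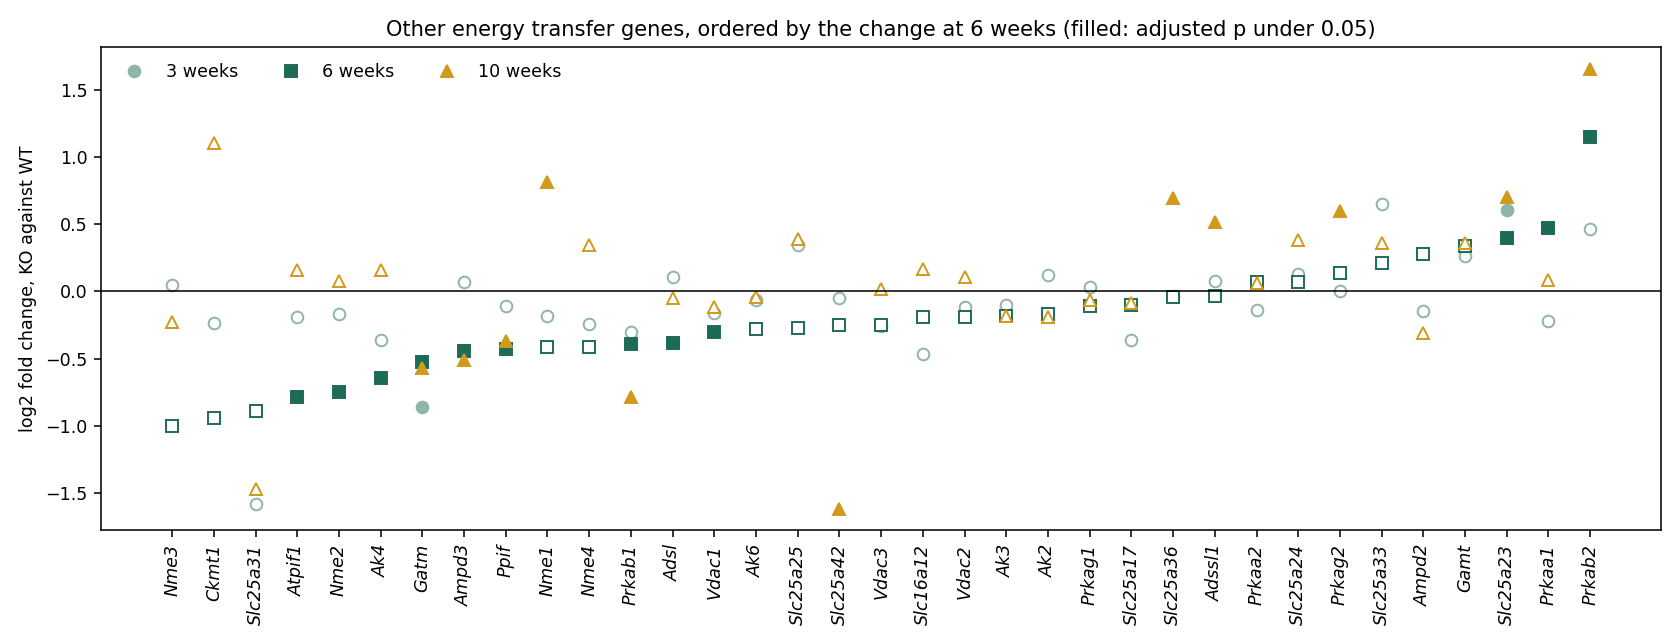
log2 fold change of KO against WT (y axis) for the 35 tested genes of the wider list (x axis, ordered by the value at 6 weeks) at 3, 6 and 10 weeks, with filled symbols for an adjusted p under 0.05. Filled symbols at 6 weeks lie mostly below 0 (9 lower, 3 higher), and at 10 weeks on both sides (5 lower, 6 higher).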

How the data were processed

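Left ventricular RNA was extracted from frozen tissue and libraries were made with NEBNext Ultra II reagents, per the labels' protocols. The deposited values are raw counts per Ensembl gene. Trimming with Trimmomatic 0.36, alignment software STAR 2.5.2b, featureCounts and Subread 1.5.2, and the build GRCm38 are listed in the submitters' processing notes. How strand and multimapping reads were treated, and by which annotation release, is not given in the sources used here, so overlapping genes cannot be told apart by strand. GENCODE M21 gave symbols for 48970 of 49315 identifiers.

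The tests used edgeR 4.0.16 in R 4.3.3 (filterByExpr, minimum count 10 and total 15; TMM; robust quasi-likelihood fit of the 6 groups over all 18 libraries; common dispersion 0.0252). Every adjusted p is Benjamini-Hochberg over all 15778 genes tested, called under 0.05; SE is the log2 fold change over the root of F. The steps were tested on simulated data. CPM uses TMM-scaled library sizes, per-kilobase values the deposited exon length, and correlations log2 CPM with a prior count of 2. Of the wider list, up to 4 called genes per direction and comparison, by size, are named, with Prkab1 at 6 weeks and Gamt added. Pattern likeness names 3 genes per member. 1 gene of the wider list is not reported here. The genes, lists and tests were chosen with earlier results of these data known. Alternatives used DESeq2 1.42.0, limma 3.58.1 (voom), other scalings and filters, a replicate block and fits without each library.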

Additional observations from a re-analysis of the deposited data

Results flagged for a closer look

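The genotype difference of 4 genes changed between ages by the interaction test in edgeR. Between 3 and 6 weeks the KO against WT value became lower for Ckm (-0.87, adjusted p = 0.0089), Slc25a4 (-0.68, adjusted p = 0.038) and Slc25a5 (-0.60, adjusted p = 0.038). Between 6 and 10 weeks it became higher for Ckm (0.59, adjusted p = 0.038) and Ckb (0.71, adjusted p = 0.018). The first call of Ckm and that of Ckb held in all 12 fits without a library. Those of Slc25a4, Slc25a5 and the second of Ckm held in 4, 2 and 3 of 12. For Slc25a4 the value was -0.03 at 3 weeks, -0.71 at 6 weeks and -0.16 at 10 weeks, and the 6-week WT libraries were the highest of that gene in the series. For Ckb the value was -0.39 at 6 weeks and 0.33 at 10 weeks.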

How the results depend on the processing

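At 6 weeks all 8 genes were called under every alternative except library totals (7, without Ckb) and some fits without a library (6 to 8 called). At 3 weeks the number called, 0 as reported, was 1 with mitochondrially encoded genes left out, with library totals and with limma voom, and 2 with no filter, DESeq2, the replicate block and without the 3 Myl4-rich libraries. At 10 weeks 2 were called as reported, and 3 with RLE size factors, with mitochondrially encoded genes left out, with no filter, with DESeq2 and without the Myl4-rich libraries. Library totals gave, with the reported count in brackets, 6 at 10 weeks (2), 1 for the genotype effect at 6 against 3 weeks (3), 0 at 10 against 6 weeks (2), 0 for WT from 3 to 6 weeks (1) and 1 for KO from 6 to 10 weeks (2, and here lower). DESeq2 gave 4 for the effect at 10 against 6 weeks, 3 for WT from 3 to 6 weeks and 4 for KO from 3 to 6 weeks; no filter gave 3 for WT from 3 to 6 weeks, 4 for KO from 3 to 6 weeks and 0 for KO from 6 to 10 weeks. Leaving out the Myl4-rich libraries, chosen after seeing the data, gave 1 for the effect at 6 against 3 weeks and 0 for WT from 3 to 6 and KO from 6 to 10 weeks.

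Fits without 1 library called 1 to 4 genes at 10 weeks, 1 to 3 for the effect at 6 against 3 weeks, 1 to 4 at 10 against 6 weeks, 0 to 2 and 1 to 4 for the WT steps, 1 to 3 and 0 to 2 for the KO steps, and 1 to 3 for KO from 3 to 10 weeks. Over all genes they called 1309 (without WT replicate 1) to 2542 at 3 weeks, against 2419, and 1593 without WT replicate 2. At 3 weeks Ckb (-0.04) ranged from -0.14 to 0.074 and was 0.064 without the Myl4-rich libraries, and Slc25a4 (-0.03) ranged from -0.072 to 0.0027, so neither has a direction there. The causes were not tested.

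Same-numbered WT and KO libraries had no strong shared deviation over all genes (correlations -0.08 to 0.09). This does not settle whether the numbers pair them. The replicate block moved the 3-week count from 0 to 2 (Ckm -0.34, adjusted p = 0.047, and Slc6a8 0.43, adjusted p = 0.045) and changed no other count of the 8. Each of the 8 genes had at least 587 counts in every library, and the 3 libraries per group limit all tests.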
